A study of Mus musculus with 16 samples.

Results

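The comparison described here sets mouse melanoma biopsies taken after 60 days of a BRAF inhibitor against untreated ones. It was made by title, with the 4 tumours titled as treated for 60 days against the 4 titled as untreated, which are 8 of the 16 samples of the series. The other 8 samples, used here only beside these, are 4 tumours after 4 days of inhibitor and 4 tumours labelled resistant at 120 days. Total RNA of each whole biopsy was labelled with Cy5 and hybridised to a 2-colour Agilent array against a universal mouse reference RNA in Cy3, and the reference carried the same dye on every array. The labels name the tissue as melanoma and give no genotype, strain, age or driver allele for any group, and the inhibitor's name and dose are likewise not given. Nor do the labels say whether the 4 tumours of a group came from separate animals, so the p-values measure the spread between these samples, which may be technical in part.

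BRAF is a kinase that passes signals from RAS through MEK to ERK, and a mutation that keeps it active drives many melanomas. ERK output includes D-type cyclins, which open the G1 to S transition by releasing E2F transcription factors, and genes that feed back on the cascade itself, such as the ERK phosphatase gene Dusp6. A melanoma biopsy also holds skin, stroma and immune cells, and the series as a whole concerns immune suppression in tumours that become resistant, so markers of these cells were read beside the pathway.

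The 16 arrays lay on 2 slides with 2 arrays of each group on each slide. Replicates 3 and 4 of every group were on slide 1 and replicates 1 and 2 on slide 2, and replicate numbers are names given in accession order. The titles also carry codes whose meaning is not given. Untreated replicates 1, 2 and 3 share 1 code and replicate 4 has another. The 60-day replicates 1 and 2 share 1 code and replicates 3 and 4 another. No code occurs in both groups, so code and treatment cannot be told apart, and tumours that share a code may not be independent. The position on the slide followed the group and cannot be told apart from it, and each slide was scanned once, so slide and scan cannot be told apart. Median Cy5 signals of the 8 arrays lay between 84.9 and 98.5, and between 49.3% and 54.2% of probes were above background in Cy5. Median Cy3 signals of the reference differed by slide, at 66.7 to 74.3 on slide 1 and 113 to 122 on slide 2. Over genes, none of which is an independent replicate, the 60-day arrays correlated with each other at a median of 0.941 (0.92 to 0.961) and the untreated arrays at 0.863 (0.789 to 0.957). On the leading principal component of the 8 arrays, with 50% of the variance, the 60-day tumours lay between 17.2 and 41.4, and untreated replicate 3, at 21.5, lay among them and apart from the other untreated tumours at -57.7 to -37.1. The melanocyte markers Dct, Pmel, Mlana, Tyrp1, Tyr, Mitf and Sox10 were above background on all 8 arrays.

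After 60 days, some genes of lipid synthesis, the sebaceous gland and Wnt signalling had risen, and some genes of ERK output, G1 cyclins, DNA replication, matrix and matrix proteases had fallen. Among genes that passed and whose groups did not overlap, the greatest rise was in Tlcd4, a membrane protein gene (5.78-fold), followed by Dgat2l6, an acyltransferase gene of the DGAT2 family (5.31-fold), and Tesc, which encodes the calcium-binding protein tescalcin (5.00-fold). Among the same genes the greatest fall was in Mest, an imprinted gene active in embryonic mesoderm (7.93-fold), followed by Plppr3, a membrane protein gene of neurons (5.52-fold), and Fn1, which encodes the matrix protein fibronectin (4.06-fold). Of 21969 genes tested with limma, 617 (2.81%) passed an adjusted p of 0.05. Of these, 270 were higher (1.23% of the genes tested) and 347 were lower (1.58%) in 60-day tumours, and 202 changed at least 2-fold. Before adjustment, 5207 genes (23.7%) had a p under 0.05. Among the 617 genes, 535 had ratios that separated the groups entirely, as did 13.8% of the genes tested. All 617 had the same direction on both slides, but they were chosen from these same arrays, so this is no separate support. The median difference over all genes was 0.

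**Figure D1:**
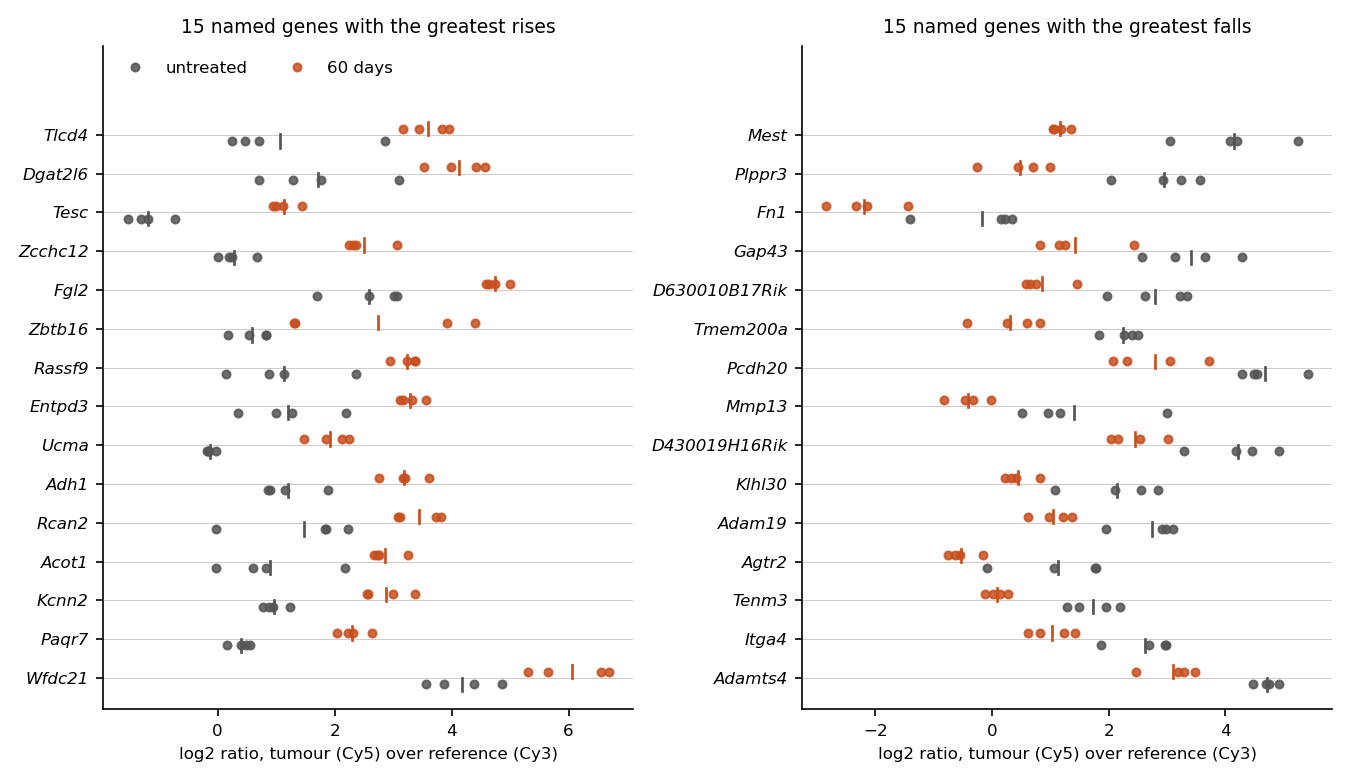
Log2 ratio of tumour over reference RNA on each array (points) and group mean (vertical bars) for the 15 named genes with the greatest rises and the 15 with the greatest falls, untreated and 60-day tumours. The groups do not overlap for any of the 30 genes, which the rule for naming them required, and untreated replicate 3 is the untreated tumour nearest to the 60-day tumours for Tlcd4 (2.86), Fn1 (-1.41) and Adam19 (1.96).

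The number of genes that passed rested on single tumours. It was 56, 52, 67 and 160 without 60-day replicates 1 to 4, and 122, 46 and 47 without untreated replicates 1, 2 and 4. It was 1758 without untreated replicate 3, and 1900 and 1383 without resistant replicate 1 and 4-day replicate 3, which enter the fit through the shared spread. Median centring in place of loess left 32 genes. All 30 genes with the greatest changes kept their direction under every alternative that tested them, and 6 of them passed without each single array in turn, namely Zcchc12, Adh1, Wfdc21, Tmem200a, D430019H16Rik and Tenm3. For the other 24 the call was lost without at least 1 array, and the same holds for the genes below unless it is said that they passed without each single array.

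Some genes of ERK output had lower ratios after 60 days. Of 22 measured genes of the MAPK output list, 4 fell and 0 rose, against 1.58% and 1.23% of all genes. The list's median difference was -0.35 on the log2 scale. Ccnd1, which encodes cyclin D1, had log2 ratios of 2.78, 2.72, 1.75 and 2.81 in untreated replicates 1 to 4 and of 1.66, 0.41, 0.99 and 1.73 in 60-day replicates 1 to 4. Every 60-day tumour lay below every untreated one, with 60-day replicate 4 and untreated replicate 3 almost level. The difference was -1.32 ± 0.31 (SE, 4 arrays against 4), a 2.49-fold fall with an adjusted p of 0.0417. For Dusp6 the ratios were 0.89, 1.10, 1.26 and 1.2 in untreated and 0.31, -0.13, -0.03 and 0.35 in 60-day tumours. The groups stood apart by more than the spread within either, and Dusp6 fell by 0.98 ± 0.19 (adjusted p = 0.0241). Phlda1, an ERK-induced gene whose product restrains AKT signalling, fell by 1.13 ± 0.21, and Hmga2, an architectural chromatin protein gene of growing cells, fell by 1.13 ± 0.26 (adjusted p = 0.0225 and 0.0392), while another Hmga2 probe gave -0.64. The other fixed names of this list did not pass. Spry4, a feedback inhibitor of receptor signalling, had a difference of -0.89 ± 0.37 (adjusted p = 0.172), with 60-day replicate 1 at 2.06 inside the untreated range of 1.68 to 2.28 and the other 60-day tumours at 0.38 to 1.07. Etv5, an ETS transcription factor gene, had -0.66 ± 0.28 (adjusted p = 0.173), and Etv4 and the AP-1 subunit gene Fosl1 had differences of -0.11 ± 0.27 and -0.05 ± 0.32. Braf itself, whose product is the target of the inhibitor, lay between -0.41 and -0.03 in untreated and between -0.31 and 0.29 in 60-day tumours, a difference of 0.27 ± 0.19 (adjusted p = 0.405). None of 18 measured genes of the BRAF and RAS cascade passed, and their median was 0.16. Without any single 1 of 60-day replicates 1, 2 and 3 or untreated replicates 2 and 4, 0 of the 4 genes of the MAPK list passed, and the highest adjusted p were 0.141 for Ccnd1 (without untreated replicate 4) 0.0907 for Dusp6, 0.0794 for Phlda1 and 0.105 for Hmga2 (without 60-day replicate 2).

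Several cyclin, kinase and replication genes fell in 60-day tumours, and most members of their lists did not pass. Of 20 measured genes of G1 and S phase entry 5 fell and 0 rose (median -0.37). Of 33 genes of DNA replication 4 fell and 0 rose (median -0.38). Among all genes 1.58% fell and 1.23% rose. E2f1, which encodes a transcription factor that switches on replication genes, had ratios of -0.43, -0.48, -1.10 and -0.62 in untreated and of -1.60, -1.44, -1.62 and -1.49 in 60-day tumours. The 60-day values lay close together and below every untreated one, and E2f1 fell by 0.88 ± 0.11 (1.84-fold, adjusted p = 0.00398) and passed without each single array. Ccnd2, which encodes cyclin D2, fell by 0.76 ± 0.19, Ccne1, which encodes cyclin E1, by 0.75 ± 0.14, and the kinase genes Cdk6 and Cdk4 by 0.58 ± 0.10 and 0.44 ± 0.09. The groups overlapped for Cdk4 and did not for the other 4. In the replication list the falls included Mcm4 (-0.65 ± 0.14), Mcm3 (-0.59 ± 0.12) and Mcm6 (-0.56 ± 0.12), subunits of the helicase that opens replication origins. The difference was negative for 32 of the 33 replication genes, and the groups did not overlap for 19 of them, each lower in 60-day tumours. Among all genes the groups did not overlap for 13.8%, in either direction. For Mcm6 the ratios were -0.79, -1.01, -1.37 and -1.3 in untreated and -1.61, -1.49, -1.63 and -1.99 in 60-day tumours, so the closest pair, untreated replicate 3 and 60-day replicate 2, differed little. Genes of mitosis and the spindle had a median of -0.28 and 33 of 34 negative differences, and 0 of them passed. Mki67, the proliferation marker, gave -0.29 ± 0.36, with all 60-day values (-1.63 to -0.78) inside the untreated range (-1.69 to -0.52). Replication genes that passed numbered 0 without any 1 of the 60-day tumours or untreated replicates 1, 2 and 4, and 9 without untreated replicate 3. With the same arrays left out, between 1 and 6 G1 genes passed. Without 60-day replicate 2 the adjusted p was 0.075 for Ccne1, 0.0593 for Cdk6, 0.09 for Cdk4 and 0.0831 for Mcm3. It was 0.155 for Ccnd2 without untreated replicate 4, 0.097 for Mcm4 without untreated replicate 2 and 0.094 for Mcm6 without untreated replicate 1.

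The promoters of replication, G1 and matrix protease genes differed in the short words they carry. Whether these words have a part in the changes was not tested. The windows searched ran from 250 bases before to 50 bases after the annotated start in RefSeq on build GRCm38.p6. The sequences shown are the 250 bases before the start, written 5′ to 3′ on the gene's strand, with the matched words in capitals. The E2F words searched were TTTGGCGC, TTTCCCGC, TTTCGCGC and TTTGCCGC on both strands. They were found for 2.60% of 27025 genes with a window, for 12 of 28 replication genes (42.9%), for 7 of 18 G1 genes and for 1 of 29 mitosis genes. Among genes that passed and had a window they were found for 15 of 209 that fell (7.18%) and 1 of 199 that rose (0.503%). The AP-1 words TGACTCA and TGAGTCA, each the reverse complement of the other, were found for 5.95% of all genes and for 5 of 16 matrix protease genes. They were found for 4.31% of the genes that fell and 7.04% of those that rose, and the named genes Dgat2l6, Entpd3, Fgl2 and Rcan2, which rose, held one too. A match describes letters in a window and is not a measured binding site. Mcm6, at chr1:128359706-128359955 on the minus strand, holds 3 E2F matches, of which 2 overlap on opposite strands. Mmp13, at chr9:7272264-7272513 on the plus strand, holds 1 AP-1 match 29 bases before its start, and Adam19, at chr11:46055734-46055983 on the plus strand, holds 1 at 125 bases.
Mcm6: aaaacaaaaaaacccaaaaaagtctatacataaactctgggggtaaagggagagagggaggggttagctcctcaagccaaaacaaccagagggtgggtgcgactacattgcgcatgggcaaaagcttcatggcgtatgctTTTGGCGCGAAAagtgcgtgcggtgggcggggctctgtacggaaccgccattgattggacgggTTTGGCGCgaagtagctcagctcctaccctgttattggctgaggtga
Mmp13: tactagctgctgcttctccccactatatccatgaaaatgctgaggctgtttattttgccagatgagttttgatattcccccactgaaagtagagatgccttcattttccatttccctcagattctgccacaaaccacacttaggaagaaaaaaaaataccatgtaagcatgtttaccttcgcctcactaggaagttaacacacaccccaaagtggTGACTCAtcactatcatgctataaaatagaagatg
Adam19: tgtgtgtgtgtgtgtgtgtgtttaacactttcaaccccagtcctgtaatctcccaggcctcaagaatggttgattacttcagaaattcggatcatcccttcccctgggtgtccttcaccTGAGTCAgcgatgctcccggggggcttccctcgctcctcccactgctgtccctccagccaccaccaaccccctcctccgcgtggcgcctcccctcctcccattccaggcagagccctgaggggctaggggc

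Some genes of matrix and its proteases fell in 60-day tumours. Of 24 measured genes of matrix proteases and their inhibitors 3 fell and 0 rose (median -0.63). Of 30 genes of activated fibroblasts and matrix 4 fell and 0 rose (median -0.72). Among all genes 1.58% fell and 1.23% rose. In whole biopsies, fewer cells of a type and less RNA per cell cannot be told apart. Mmp13, which encodes a collagenase, had ratios of 0.51, 0.96, 3.00 and 1.17 in untreated and of -0.02, -0.32, -0.82 and -0.46 in 60-day tumours. Untreated replicate 3 was the highest and 60-day replicate 3 the lowest, both on slide 1, where the difference was -2.72 against -0.90 on slide 2. Mmp13 fell 3.51-fold (-1.81 ± 0.40, adjusted p = 0.0324). Adam19, a membrane protease that sheds growth factor precursors, had 2.98, 3.1, 1.96 and 2.91 in untreated and 1.22, 0.62, 0.98 and 1.37 in 60-day tumours and fell 3.22-fold (-1.69 ± 0.27, adjusted p = 0.0146). Another Adam19 probe gave -0.55. Adamts4, an aggrecanase gene, fell by 1.61 ± 0.32 (adjusted p = 0.025), and its untreated values lay within 4.48 to 4.93.

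Fn1 had ratios of 0.23, 0.35, -1.41 and 0.15 in untreated and of -1.44, -2.14, -2.84 and -2.34 in 60-day tumours. Untreated replicate 3 nearly met the 60-day tumours and was low for the mean of the whole fibroblast list too, at 1.70 against 2.50 to 2.60 in the other untreated tumours. Fn1 fell by 2.02 ± 0.42 (adjusted p = 0.0284). Cthrc1, a secreted protein of matrix-forming fibroblasts, had 3.25, 2.94, 2.59 and 2.53 in untreated and 1.86, 1.31, 0.98 and 1.01 in 60-day tumours. It fell by 1.54 ± 0.20 (2.90-fold, adjusted p = 0.0047), by near the same step on both slides (-1.57 and -1.51), and passed without each single array. Postn, a matrix protein gene of activated fibroblasts, fell by 1.17 ± 0.29, and Vcan, a proteoglycan gene, by 1.33 ± 0.31, while other Vcan probes gave -0.73 to -0.67. Col1a2 and Sparc, the brightest measured members, had differences of -0.77 ± 0.37 and -0.72 ± 0.43 and did not pass. Without 60-day replicate 2 the adjusted p was 0.104 for Fn1, and without untreated replicate 4 it was 0.0647 for Adam19, 0.0876 for Adamts4, 0.151 for Postn and 0.144 for Vcan. Without 60-day replicate 3 it was 0.0969 for Mmp13. With single 60-day or untreated tumours left out, between 0 and 4 protease genes and between 1 and 7 fibroblast genes passed, the most without untreated replicate 3 in both, and 6 and 8 passed without resistant replicate 1.

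The other great falls do not share a single list. Mest had ratios of 5.25, 4.20, 3.06 and 4.08 in untreated tumours and of 1.07, 1.19, 1.04 and 1.35 in 60-day tumours. The 60-day values spanned little and lay far below all untreated ones, with a mean of 1.16 ± 0.14 (SD, n = 4) against 4.15 ± 0.89. The difference was -2.99 ± 0.50 (adjusted p = 0.0159), and 2 further probes gave -2.73 and -1.34. The probe lies at chr6:30698279-30698338 of build mm9, the build of the array design, and whether it is in an exon or a UTR was not analysed here. Mest was the only gene that passed of 16 measured in the imprinted growth list (median -0.34), against 2.81% of all genes. The same holds for the 22 measured in the adipocyte list, where 19 differences were positive. Gap43, which encodes a growth cone protein, had 3.14, 4.29, 2.57 and 3.66 in untreated and 2.44, 1.25, 0.83 and 1.15 in 60-day tumours. Only 60-day replicate 1 came near the untreated range, and Gap43 fell by 1.99 ± 0.46 (adjusted p = 0.04). It was the single gene of 15 measured in the Schwann cell and nerve list that passed, against 2.81% of all genes. The list's median was -0.14. Tenm3, a teneurin that mediates contacts between neurons, had 2.20, 1.95, 1.28 and 1.49 in untreated and 0.14, -0.12, 0.27 and 0.02 in 60-day tumours. These groups were more than 1 log2 unit apart, and Tenm3 fell by 1.65 ± 0.22 (adjusted p = 0.00446). Plppr3 fell by 2.47 ± 0.55, the protocadherin gene Pcdh20 by 1.90 ± 0.40 and Itga4, which encodes the alpha 4 chain of integrins that bind fibronectin and VCAM1, by 1.61 ± 0.29. Another probe gave -0.76 for Itga4 and -1.01 for Tenm3. Agtr2, the type 2 angiotensin receptor gene, was above background on 3 of 4 untreated arrays and not well above background on any 60-day array. Its fall was at least 2.66-fold, a bound that sets the untreated Cy5 mean against the lowest detectable signal, leaves out the reference and is open to dye bias. Tmem200a, a membrane protein gene, and the protein-coding gene D430019H16Rik fell by 1.94 ± 0.25 and 1.77 ± 0.27. Klhl30 and the long non-coding RNA D630010B17Rik fell by 1.70 ± 0.41 and 1.94 ± 0.38. Without untreated replicate 4 the adjusted p was 0.0647 for Mest, 0.124 for Plppr3, 0.137 for Gap43, 0.0936 for Agtr2, 0.0791 for Itga4 and 0.148 for Klhl30, and without 60-day replicate 2 it was 0.103 for Pcdh20 and 0.091 for D630010B17Rik.

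A group of genes of the sebaceous gland and of fatty acid synthesis rose in 60-day tumours. Of 28 measured genes of this list 6 rose and 0 fell, and the median was 1.31. The groups did not overlap for 21, each higher in 60-day tumours. Among all genes 1.23% rose, 1.58% fell and 13.8% did not overlap in either direction. Scd1, which encodes the desaturase that makes oleic acid, had ratios of 1.61, 1.72, 2.31 and 1.69 in untreated and of 3.48, 3.53, 3.74 and 3.29 in 60-day tumours. All 60-day tumours lay above the highest untreated tumour, replicate 3, and Scd1 rose 3.19-fold (1.67 ± 0.28, adjusted p = 0.0159). Dgat2l6 had 0.71, 1.77, 3.1 and 1.29 in untreated and 4.41, 4.57, 3.99 and 3.53 in 60-day tumours. Untreated replicate 3 was again the highest of its group, and the rise was 2.41 ± 0.46 (adjusted p = 0.0241). Acsbg1, an acyl-CoA synthetase gene, rose by 1.79 ± 0.37 (0.95 by another probe), Me1, which encodes malic enzyme and supplies NADPH for lipid synthesis, by 1.44 ± 0.31, and Plin2, which encodes a coat protein of lipid droplets, by 1.26 ± 0.22. Acot1, an acyl-CoA thioesterase gene outside the list, rose by 1.95 ± 0.48 (adjusted p = 0.0485). Cholesterol synthesis genes had 23 of 24 positive differences and a median of 0.42, and 0 of them passed. Without untreated replicate 4 the adjusted p was 0.0647 for Scd1, 0.102 for Acsbg1, 0.11 for Me1, 0.0716 for Plin2 and 0.155 for Acot1, and without 60-day replicate 2 it was 0.0867 for Dgat2l6. With single 60-day or untreated tumours left out, between 0 and 10 genes of the list passed, with 10 without untreated replicate 3, and 20 passed without resistant replicate 1.

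Hair and epidermal markers had mostly positive differences too, and their part in the sebaceous rises was not tested. All 30 measured markers of the hair shaft and root sheath had positive differences (median 1.69), and 0 passed. The groups did not overlap for 11, against 13.8% of all genes in either direction. The mean of these markers was 2.98, 1.11, 3.37 and 0.90 in untreated and 3.56, 3.99, 3.75 and 3.75 in 60-day tumours, so that untreated replicates 1 and 3 were close to the treated tumours and untreated replicates 2 and 4 were not. The sebaceous mean was 1.05, 1.28, 1.77 and 1.07 in untreated replicates 1 to 4, so replicate 3 was the highest for both lists. The brightest of the hair markers, the root sheath keratin gene Krt71, differed by 1.15 ± 0.48 (adjusted p = 0.171) with overlapping groups. Keratinocyte markers had 22 of 24 positive differences and a median of 0.54, and 0 passed. Their mean was 3.38 to 3.87 in untreated and 4.01 to 4.72 in 60-day tumours. Without untreated replicate 3, 4 hair markers and 0 keratinocyte markers passed, and without resistant replicate 1, 8 keratinocyte markers did.

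**Figure D2:**
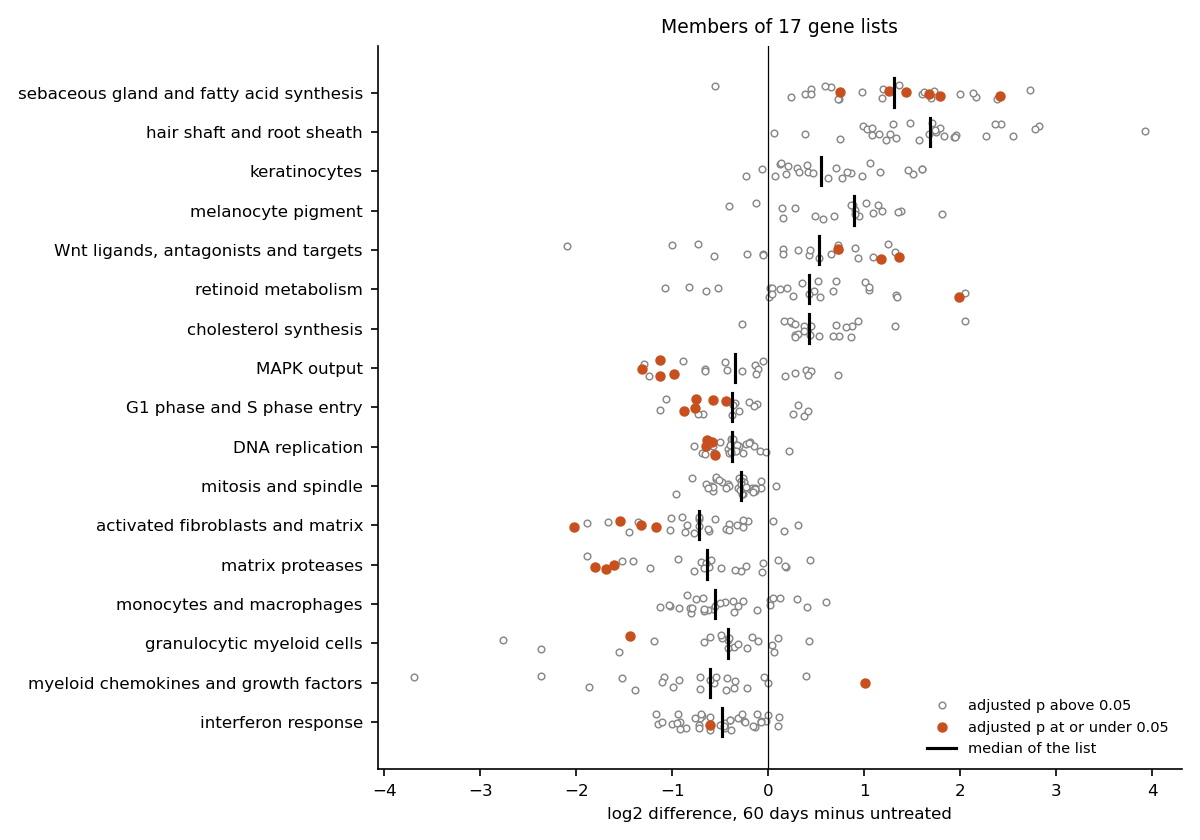
Log2 difference between 60-day and untreated tumours for each measured member of 17 gene lists (points), filled where the adjusted p over all genes was at or under 0.05, with the list's median as a vertical bar. The medians of the skin and lipid lists lie right of 0, up to 1.69 for hair shaft and root sheath, and those of cell cycle, matrix and myeloid lists lie left of it, down to -0.72 for fibroblasts and matrix.

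Wnt and retinoid genes held further rises. Of 25 measured Wnt ligands, antagonists and targets 3 rose and 0 fell (median 0.53), against 1.23% and 1.58% of all genes. Differences in this list ran from -2.1 to 1.36, with 18 positive and 7 negative. The groups did not overlap for 6 higher and 2 lower genes, against 13.8% of all genes in either direction. Axin2, which encodes a scaffold of the beta-catenin destruction complex and is itself a Wnt target, had ratios of 0.27, 0.46, 1.06 and 0.49 in untreated and of 1.79, 1.80, 1.77 and 1.60 in 60-day tumours. The 60-day values were nearly equal and above every untreated value, and Axin2 rose 2.24-fold (1.17 ± 0.27, adjusted p = 0.0423). Nkd1, another target that restrains the pathway, rose by 1.36 ± 0.27, and the ligand gene Wnt7b, above background on 1 of 4 untreated arrays, by 0.73 ± 0.17. A further probe gave 0.37 for Axin2 and 0.26 for Nkd1. In the retinoid list 1 of 25 genes rose, against 1.23% of all genes. It was Adh1, which encodes an alcohol dehydrogenase that oxidises retinol. Adh1 had 1.88, 0.86, 1.15 and 0.90 in untreated and 3.62, 3.21, 3.16 and 2.75 in 60-day tumours. The lowest treated tumour lay well above the highest untreated one, and Adh1 rose 3.96-fold (1.99 ± 0.24, adjusted p = 0.00388) and passed without each single array. Without untreated replicate 4 the adjusted p was 0.138 for Axin2 and 0.0828 for Nkd1, and without 60-day replicate 2 it was 0.134 for Wnt7b. Of the Wnt genes 0 passed without any 1 of the 60-day tumours or untreated replicates 1, 2 and 4, and 4 passed without untreated replicate 3.

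The remaining great rises belong to no single group. Tesc had ratios of -1.31, -1.19, -0.73 and -1.54 in untreated and of 1.45, 0.95, 1.00 and 1.11 in 60-day tumours, so that it lay below the reference in all untreated and above it in all treated tumours. The rise was 2.32 ± 0.47 (adjusted p = 0.0266). Zcchc12, a coactivator gene of BMP signalling, had 0.24, 0.20, 0.67 and 0.01 in untreated and 3.07, 2.24, 2.31 and 2.36 in 60-day tumours. It was above background on 1 of 4 untreated and on all 60-day arrays, and it rose by 2.22 ± 0.30 (adjusted p = 0.0047). Zbtb16, which encodes the transcription factor PLZF and is induced by glucocorticoids, had 3.92, 4.40, 1.3 and 1.32 in 60-day and 0.17 to 0.83 in untreated tumours. Its treated values fell in 2 levels by slide, and the difference was 3.33 on slide 2 and 0.95 on slide 1 (2.14 ± 0.46, adjusted p = 0.0315). Ucma, a gene of cartilage matrix, was not well above background on any untreated array and rose at least 3.95-fold by the bound described for Agtr2. Entpd3, an ectonucleotidase gene, rose by 2.09 ± 0.36, Rassf9 by 2.10 ± 0.43, Kcnn2, a calcium-activated potassium channel gene, by 1.91 ± 0.32, and Paqr7, a membrane progestin receptor gene, by 1.90 ± 0.34. Rcan2, a calcineurin inhibitor gene, rose by 1.97 ± 0.47, and Tlcd4 by 2.53 ± 0.62. Wfdc21, a secreted protein gene, rose by 1.88 ± 0.29, by 1.76 on slide 1 and 2.00 on slide 2. Without untreated replicate 4 the adjusted p was 0.156 for Tlcd4, 0.0959 for Tesc, 0.0924 for Rassf9, 0.0662 for Entpd3, 0.0647 for Kcnn2 and 0.075 for Paqr7. Without 60-day replicate 2 it was 0.104 for Zbtb16 and 0.091 for Ucma, and without 60-day replicate 3 it was 0.119 for Rcan2.

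Most pigment cell genes were higher in 60-day tumours without passing the test. The mean of the list lay between 1.51 and 2.3 in 60-day and between 0.84 and 1.25 in untreated tumours. Of 20 measured melanocyte genes 18 had positive differences (median 0.89), and 0 passed. The groups did not overlap for 5, against 13.8% of all genes in either direction. Pmel, a melanosome matrix gene, had ratios of 1.88, 0.93, 1.87 and 0.97 in untreated and of 2.44, 3.31, 2.76 and 2.68 in 60-day tumours (1.38 ± 0.47, adjusted p = 0.112). Mlana differed by 1.18 ± 0.48 and the pigment enzyme gene Tyrp1 by 1.35 ± 0.62, both without overlap, and Dct and Tyr by 0.95 ± 0.57 and 0.68 ± 0.32 with overlap. The lineage factor gene Mitf differed by 0.49 ± 0.20 and Sox10 by -0.13 ± 0.18. Gpnmb, a melanosome glycoprotein gene that macrophages share, had the greatest difference, 1.81 ± 0.45 (adjusted p = 0.0506). Pigment cells of hair follicles share these genes, and the hair markers described above were higher in the same tumours, so their part in these values was not tested.

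Few immune genes passed, and the direction differed between lists. Of 23 measured myeloid chemokine and growth factor genes 21 had negative differences (median -0.61), with 9 below the untreated tumours without overlap. Of the 23, 0 fell and 1 rose. Among all genes 1.58% fell, 1.23% rose and 13.8% did not overlap in either direction. Of these 23 genes 3 were not well above background on any 60-day array. The gene that rose was Il34, a ligand of the CSF1 receptor that epidermal cells make. It had ratios of 1.48, 1.35, 1.89 and 1.31 in untreated and of 2.61, 2.49, 2.41 and 2.56 in 60-day tumours, rose by 1.01 ± 0.15 (adjusted p = 0.00845) and passed without each single array. Ccl2, the ligand that recruits monocytes through CCR2, had -1.14, -0.44, -0.64 and -0.38 in untreated and -1.36, -1.62, -2.31 and -1.67 in 60-day tumours. Its groups did not overlap, but untreated replicate 1 came close, and the difference of -1.09 ± 0.37 did not pass (adjusted p = 0.11). Ccr2, its receptor gene, differed by -0.55 ± 0.45 and Csf1r by -0.63 ± 0.33. Monocyte and macrophage genes had a median of -0.55 with 22 of 29 negative, and 0 passed.

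Granulocytic genes had 17 of 21 negative differences (median -0.42), and 1 fell, against 1.58% of all genes. S100a9, a calprotectin subunit gene of neutrophils that keratinocytes also make, had 6.45, 6.47, 6.03 and 5.85 in untreated and 6.08, 6.01, 3.68 and 3.26 in 60-day tumours. The 60-day replicates on slide 2 lay within the untreated range and those on slide 1 far below it, with within-slide differences of -2.47 on slide 1 and -0.41 on slide 2 (-1.44 ± 0.35, adjusted p = 0.0444). Its partner gene S100a8 showed the same split, -4.61 on slide 1 and -0.91 on slide 2 (-2.76 ± 0.74, adjusted p = 0.0618). The 60-day replicates 1 and 2 on slide 2 share 1 code in their titles and replicates 3 and 4 on slide 1 another, so slide and code cannot be told apart within this group. Arg1, the arginase gene of suppressive myeloid cells, differed by -0.45 ± 0.41. Fgl2, a secreted protein gene with roles in coagulation and immune suppression, rose by 2.16 ± 0.40 (adjusted p = 0.0213) and was above the untreated range of 1.69 to 3.06 in all 60-day tumours (4.59 to 5.00).

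Of 18 measured genes of cytotoxic and NK cells 1 fell, against 1.58% of all genes. This was the granule protease gene Gzma. It had 1.57, 1.55, 2.24 and 1.45 in untreated and -0.08, 0.67, -0.20 and 0.49 in 60-day tumours with no overlap. Gzma fell 2.79-fold (-1.48 ± 0.29, adjusted p = 0.0225). Cd8a was above background on 2 of 4 untreated and 1 of 4 60-day arrays, and its difference was -0.30 ± 0.21. Foxp3, the regulatory T cell factor gene, differed by -0.14 ± 0.22, and the checkpoint ligand gene Cd274 by -0.02 ± 0.35. T cell, regulatory T cell, checkpoint, B cell, dendritic cell and MHC class II genes held 0 that passed. Differences were positive for 6 of 11 regulatory T cell genes, 6 of 11 B cell genes and 7 of 18 T cell genes. Interferon response genes were negative in 36 of 38, with a median of -0.48 and 12 below the untreated tumours without overlap, where 13.8% of all genes did not overlap in either direction. Of the 38, 1 fell, the RNA sensor gene Ddx58 (-0.61 ± 0.13), against 1.58% of all genes. Calr, which encodes a chaperone of MHC class I loading, fell by 0.35 ± 0.08 with overlapping groups. Without untreated replicate 4 the adjusted p of S100a9 was 0.148. Without 60-day replicate 2 it was 0.075 for Fgl2 and 0.1 for Ddx58, without 60-day replicate 3 it was 0.0746 for Gzma, and without untreated replicate 2 it was 0.124 for Calr.

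**Figure D3:**
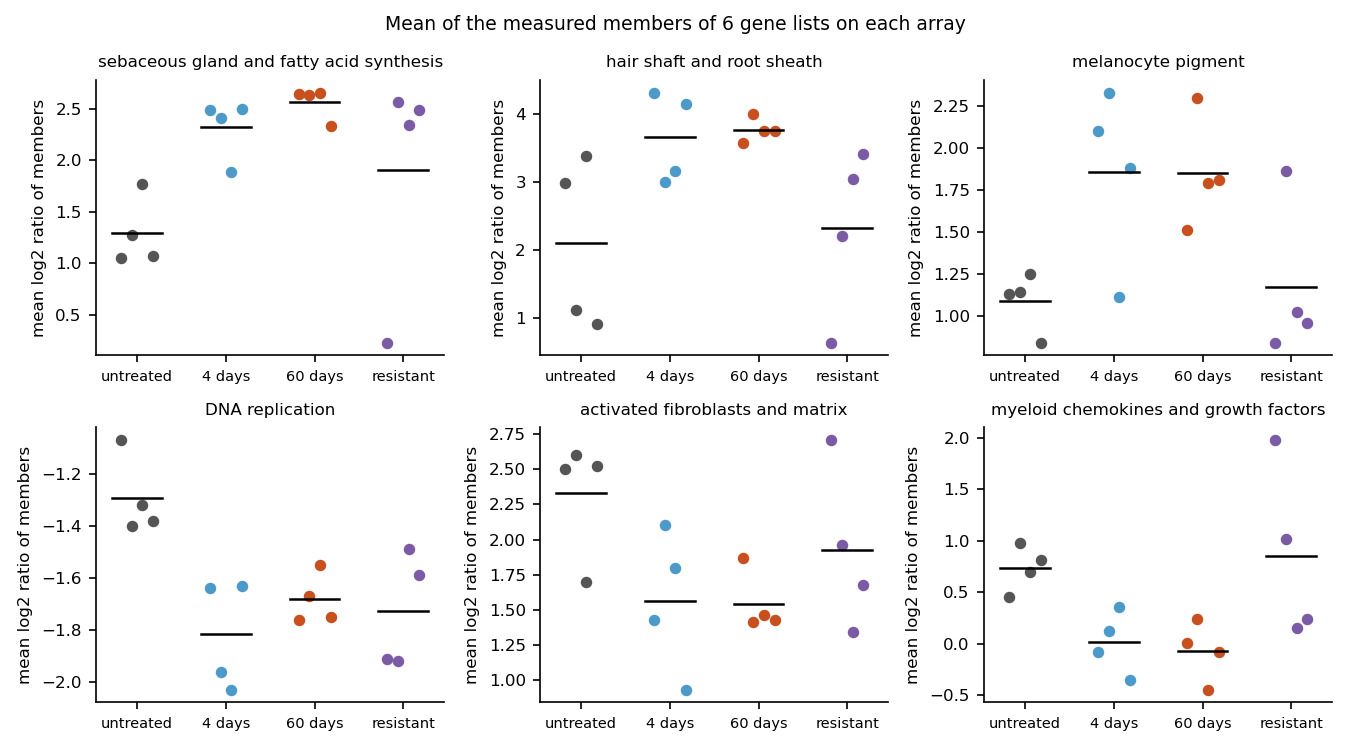
Mean log2 ratio of the measured members of 6 gene lists on each array (points) and the group mean (bars) for untreated, 4-day, 60-day and resistant tumours, each panel with its own vertical scale. The 60-day tumours lie above the untreated ones for sebaceous genes (2.33 to 2.66 against 1.05 to 1.77) and below them for DNA replication (-1.76 to -1.55 against -1.40 to -1.07), and for hair markers untreated replicates 1 and 3 lie near the 60-day tumours.

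The 4-day and resistant tumours were read beside these values. Each group was set against the same 4 untreated arrays, so the differences share their controls. No title code of the 4-day or resistant tumours occurs in another group, so code and group cannot be told apart here either. Against untreated tumours 644 genes passed at 4 days (2.93%) and 14 in resistant tumours (0.0637%). The direct test between 60 and 4 days left 1 gene (0.00455%), with 685 at an unadjusted p under 0.05. This gene was the clock transcription factor gene Arntl, which was 1.47 ± 0.17 higher at 60 days (adjusted p = 0.0213). Its ratios were -0.77, -1.46, -0.86 and -0.32 at 4 days and 0.22, 0.44, 0.99 and 0.82 at 60 days, against 0.41 to 0.92 untreated. With any 1 of the 60-day tumours, 4-day replicates 2 and 3 or untreated replicates 2 and 3 left out, 0 genes passed. The direct test between resistant and 60-day tumours left 0 genes with limma (1796 at an unadjusted p under 0.05, smallest adjusted p 0.247).

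Side by side, Ccnd1 differed from untreated tumours by -2.40 at 4 days, -1.32 at 60 days and -0.87 in resistant tumours. Dusp6 gave -0.94, -0.98 and -0.88 in the same order, and Phlda1 -1.26, -1.13 and -0.50. E2f1 gave -0.83, -0.88 and -0.69, close to each other in all 3 groups. For Mest the values were -1.39, -2.99 and -1.94, and for Mmp13 they were -1.94, -1.81 and -0.46. Adh1 gave 2.32, 1.99 and 2.05, Scd1 1.37, 1.67 and 1.18, and Axin2 0.75, 1.17 and 0.25. Tesc gave 1.27, 2.32 and 0.71. Apart from Arntl, none of these differences between treated groups passed the direct tests. In the same order, the list medians were, for hair markers, 1.56, 1.69 and 0.21, for sebaceous genes 1.18, 1.31 and 0.58, for melanocyte genes 0.86, 0.89 and 0.06, and for DNA replication -0.51, -0.38 and -0.43. MAPK output had -0.63, -0.35 and -0.09, and myeloid chemokines -0.46, -0.61 and 0.17. Resistant replicate 1 stood apart from the other resistant tumours, with a sebaceous mean of 0.23 against 2.34 to 2.57 and a hair mean of 0.63 against 2.20 to 3.41. Without it the resistant medians were 0.77 for hair markers, 1.24 for sebaceous genes, 0.20 for melanocyte genes, -0.29 for MAPK output and -0.19 for myeloid chemokines, the last with the sign turned. Tesc was then 1.24 and Axin2 0.53. Without resistant replicate 4 the hair median was -0.13, without resistant replicate 2 the melanocyte median was -0.15, and without resistant replicate 3 Axin2 was -0.01 and Tesc 0.31.

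**Figure D4:**
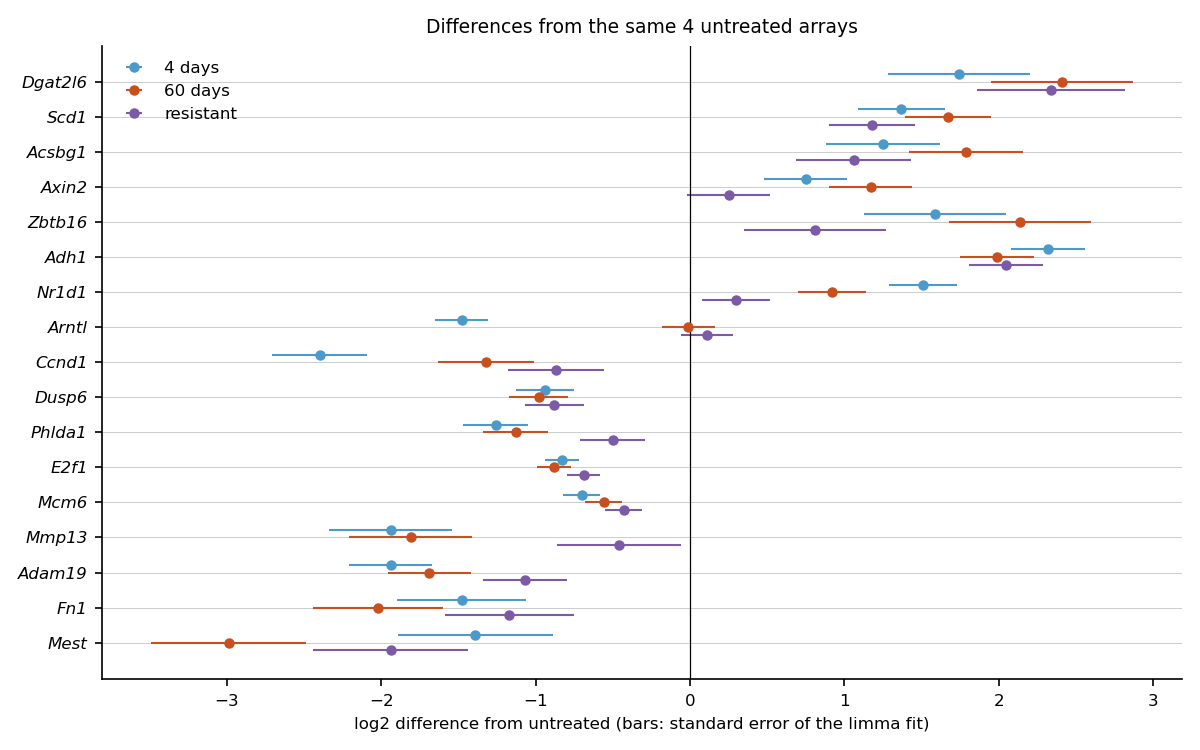
Log2 difference from the same 4 untreated arrays for 17 genes at 4 days, 60 days and in resistant tumours, with the standard error of the limma fit as bars. Arntl lies at -1.48 at 4 days and -0.01 at 60 days, while E2f1 and Adh1 lie at similar values in all 3 groups.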

How the data were processed

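Per the file headers, Agilent Feature Extraction 10.7.3.1 gave mean spot and median local background intensity values, processed intensity values, their log10 ratio of Cy5 over Cy3, and flags of 0 or 1 (another kind of value, other) for spots above background. The deposited value table holds log2 ratios and its slope on the scanner's ratios, both in log2, was 0.993.

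From the intensities, background was removed with normexp (offset 50), ratios were normalized by loess and expressed as log2, and limma 3.58.1 in R 4.3.3 was fitted to all 16 arrays with 4 groups and the slide as a fixed term. Control spots were left out, and outlier spots (0.55% of values) were set missing. Of 55681 probes 30486 were kept, with Cy5 above background on at least 4 arrays, and each gene was taken from its brightest probe. RefSeq matched 28354 probes by accession, and the symbol changed for 1763 of them. P-values were adjusted by Benjamini-Hochberg over all genes, with a threshold of 0.05. The fit was tested on simulated data. Leaving out single 4-day and resistant arrays from the side-by-side values was added after seeing the data. Array number limits the precision.

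The members and the 48 gene lists were chosen with earlier results of these data known. The text names, among genes that passed without overlap of the groups, the 15 with the greatest rise and the 15 with the greatest fall, list members that passed, some of the 2 brightest members of a list, and fixed names. The melanocyte markers named were fixed as markers. Genes of the side-by-side values, the promoters shown and Arntl were chosen after their values were seen. Motifs were counted and figures drawn in Python 3.11.15. Some list members that passed are counted but not reported here by name.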

Additional observations from a re-analysis of the deposited data

Results flagged for a closer look

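Single tumours stood apart from the other 3 of their group, by the gap to the nearest divided by the range, in 9 of 156 groups of values checked, and chance alone flags about 1 in 20. Untreated replicate 3 was low for Fn1 (-1.41, others 0.15 to 0.35), Adam19 (1.96, others 2.91 to 3.1) and the mean of the fibroblast and matrix list (1.70, others 2.50 to 2.60). Untreated replicate 4 was low for the mean of the keratinocyte list (3.38, others 3.8 to 3.87). Among 60-day tumours, replicate 1 was high for Zcchc12 (3.07, others 2.24 to 2.36), for the mean of the Schwann cell list (2.30, others 1.79 to 1.83) and for the mean of the fibroblast list (1.87, others 1.41 to 1.46). Replicate 3 was high for Acot1 (3.26, others 2.67 to 2.75), and replicate 4 was low for the mean of the sebaceous list (2.33, others 2.64 to 2.66). Arntl differed between 60 and 4 days by 1.47, by the direct test given above.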

How the results depend on the processing

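Between 60-day and untreated tumours 617 genes passed. The count was 179 without a slide term (all among the 617), 1878 with the 8 arrays alone (554 among the 617), 8271 with array weights, 258 with the processed signals, 32 with median centring and 285 with the deposited value table. It was 417 with the title code as a random block, whose consensus correlation was 0.0411, and between 463 and 631 under the other settings. With 1 array left out it ran from 46, without untreated replicate 2, to 1900, without resistant replicate 1. The 1 gene between 60 and 4 days became 0 without a slide term, with the 8 arrays alone and with median centring, and 15 with array weights, and 0 to 2 genes passed with 1 array left out. The 0 genes between resistant and 60-day tumours became 3 with the 8 arrays alone, and 0 to 1 passed with 1 array left out. No named gene that passed changed sign among 5081 recomputed differences. Signs did change for genes that had not passed. Apart from differences within 1 slide, these reached 0.03 for Etv4, 0.09 for Fosl1, 0.06 for Ccr2, 0.13 for Foxp3, 0.14 for Arg1, 0.36 for Cd274 and 0.01 for Mki67. Within slide 2 alone the difference was 0.23 for Fosl1 and 0.2 for Foxp3. Of 1440 medians of lists 47 moved by more than the spread between arrays. The cause of these shifts was not tested. No paired analysis was possible because replicate numbers were given in accession order. Array position and group cannot be told apart, and probes not well above background in a group give only a bound.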

Other observations

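Other gene groups held single changes, where 1.58% of all genes fell and 1.23% rose. Among 19 measured p53 targets 2 fell, the apoptosis gene Bax (-0.96 ± 0.18, adjusted p = 0.0225) and the death receptor gene Tnfrsf10b (-0.44 ± 0.10), and the list's median was -0.32. Among 28 genes of amino acid stress and one-carbon metabolism 2 fell, the mitochondrial folate enzyme genes Aldh1l2 (-1.51 ± 0.30) and Mthfd1l (-1.05 ± 0.21), while the median was 0.06. Another Mthfd1l probe gave -0.57. Aldh1l2 lay between -1.94 and -0.72 in untreated and between -3.07 and -2.70 in 60-day tumours. Nr1d1, a clock repressor gene, rose by 0.92 ± 0.22, and the clock output gene Dbp differed by 1.18 ± 0.33 (adjusted p = 0.0684). The mast cell protease gene Cpa3 rose by 0.57 ± 0.12 and the endothelial factor gene Sox17 by 0.53 ± 0.13, both with overlapping groups. Pfkfb4, a regulator of glycolysis, fell by 0.44 ± 0.10, also with overlapping groups. Each of these calls was lost without at least 1 array. The highest adjusted p was 0.0791 for Bax and 0.128 for Tnfrsf10b without untreated replicate 4, and 0.142 for Sox17 without untreated replicate 2. It was 0.0897 for Aldh1l2, 0.0964 for Mthfd1l, 0.146 for Nr1d1 and 0.103 for Cpa3 without 60-day replicate 2, and 0.0932 for Pfkfb4 without 60-day replicate 3.

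Neighbouring tissue varied within groups. The mean of 24 skeletal muscle markers was 0.03 in 60-day replicate 3 and 0.67 in untreated replicate 3 and lay between 2.40 and 3.40 in the other 6 tumours. The mean of 8 erythroid markers lay between 1.14 and 1.78 in untreated and between 1.41 and 1.91 in 60-day tumours.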
